A study of Mus musculus with 12 samples.

Results

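BV2 cells, an immortalised mouse microglial line, were treated with 6-shogaol at 30 µM and then with lipopolysaccharide (LPS), and were compared with cells given LPS alone. 6-Shogaol is a pungent phenol of dried ginger, and LPS, a bacterial endotoxin, acts through the receptor TLR4. The comparison set 2 libraries with 6-shogaol and LPS against 2 with LPS, 4 of the 12 libraries of the series. Genes were filtered, and their spread was estimated, over all 12 libraries. Of 12705 genes tested, 3222 differed, and 2416 of these 3222 (75%) were not called when LPS was compared with untreated cells. These 2416 genes are the main subject here.

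The groups used below were 6-shogaol at 10 µM and at 30 µM with LPS, 6-gingerol at 30 µM with LPS, LPS alone, and untreated cells, each with 2 libraries. All were BV2 cells moved to serum-free medium 24 h after seeding and held there for at least 4 h. Compounds were given 1 h before LPS, which was used at 100 ng/mL, and the time from LPS to harvest is not given in the labels. BV2 is a single transformed line that divides in culture, and all groups share it. The labels do not say whether the 2 libraries of a group came from separate cultures, and the p-values then cover no more than the spread seen between libraries. In bulk RNA a change in the number of cells in a given state and a change in RNA per cell cannot be told apart.

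As background, 6-shogaol carries an α,β-unsaturated ketone, a group that reacts with protein thiols, where 6-gingerol carries a β-hydroxy ketone. Thiol-reactive compounds are known to free NRF2 from KEAP1, which raises glutathione and NADPH genes through the antioxidant response element, and to activate HSF1, which raises chaperones through the heat shock element. E2F factors switch on the genes of DNA replication when cells leave G1. ATF4 is translated when eIF2α is phosphorylated and drives amino acid and stress genes, among them Ddit3, Trib3 and Ppp1r15a.

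The sequences below are promoters of 5 genes called with 6-shogaol, chosen because each holds letters that one of these factors is known to read. Each is a RefSeq window of 300 bases on GRCm38.p6, from 250 bases before to 50 bases after a gene's start, printed 5′ to 3′ on the gene's strand. Capitals mark the match named for each gene. The first pair, Mcm5 (chr8:75109259-75109558, + strand) and Cdc6 (chr11:98907901-98908200, + strand), holds an E2F site (TTTCCCGC or TTTGGCGC on either strand).
Mcm5: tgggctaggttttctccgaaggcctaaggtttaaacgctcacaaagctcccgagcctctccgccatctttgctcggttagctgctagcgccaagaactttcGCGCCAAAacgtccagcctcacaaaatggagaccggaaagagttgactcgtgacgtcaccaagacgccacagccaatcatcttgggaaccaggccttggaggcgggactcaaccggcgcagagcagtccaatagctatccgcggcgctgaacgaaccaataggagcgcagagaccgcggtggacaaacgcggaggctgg
Cdc6: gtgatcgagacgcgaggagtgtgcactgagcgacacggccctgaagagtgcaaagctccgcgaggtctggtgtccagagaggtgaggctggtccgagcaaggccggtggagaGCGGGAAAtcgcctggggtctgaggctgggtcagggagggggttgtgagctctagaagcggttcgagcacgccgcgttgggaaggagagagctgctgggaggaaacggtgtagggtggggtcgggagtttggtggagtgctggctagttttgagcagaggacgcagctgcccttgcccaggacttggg
Prdx1 (chr4:116685349-116685648, + strand) holds the antioxidant response element core, TGACNNNGC on either strand.
Prdx1: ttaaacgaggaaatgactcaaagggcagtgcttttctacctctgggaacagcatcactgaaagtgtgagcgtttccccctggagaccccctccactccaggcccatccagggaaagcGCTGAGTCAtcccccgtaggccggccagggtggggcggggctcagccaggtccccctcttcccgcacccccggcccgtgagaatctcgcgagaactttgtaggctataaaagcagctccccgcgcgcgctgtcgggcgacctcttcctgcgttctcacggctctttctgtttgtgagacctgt
Hsph1 (chr5:149636287-149636586, − strand) holds a heat shock element of 3 alternating units, GAA, TTC and GAA with 2 bases between units, on either strand.
Hsph1: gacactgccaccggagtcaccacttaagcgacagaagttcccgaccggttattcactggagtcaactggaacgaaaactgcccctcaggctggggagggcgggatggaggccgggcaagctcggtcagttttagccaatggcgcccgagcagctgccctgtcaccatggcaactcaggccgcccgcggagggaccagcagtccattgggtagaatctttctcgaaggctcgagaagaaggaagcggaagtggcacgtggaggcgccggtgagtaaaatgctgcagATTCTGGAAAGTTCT
Trib3 (chr2:152344011-152344310, − strand) holds a C/EBP-ATF composite element, TGATGNAAN on either strand.
Trib3: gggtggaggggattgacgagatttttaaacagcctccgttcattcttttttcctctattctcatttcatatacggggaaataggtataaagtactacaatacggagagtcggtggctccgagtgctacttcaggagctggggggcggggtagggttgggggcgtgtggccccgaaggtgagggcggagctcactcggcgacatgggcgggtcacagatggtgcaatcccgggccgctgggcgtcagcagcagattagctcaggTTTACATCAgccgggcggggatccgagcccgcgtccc

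Windows were listed for 9427 of the 12705 genes tested (74.2%), and the first window listed was used for each gene. An E2F site of either form stood in 7.04% of the 1066 windows of genes that rose and were not called with LPS, in 1.51% of the 795 windows of genes that fell, and in 3.26% of all windows of tested genes. Over all 27025 windows of the table the share was 1.63%. It was 9 of 22 windows (40.9%) for genes of replication licensing and 0 of 44 for genes of mitosis. Between these stood 9 of 37 (24.3%) for polymerases and fork repair, 6 of 27 (22.2%) for G1 genes and 2 of 28 (7.14%) for nucleotide synthesis. The antioxidant core was in 15.1% of windows of genes that rose and in 15.2% of those that fell, against 15% of tested genes and 12.5% of all windows. It was in 5 of 22 windows of the glutathione list (22.7%), 6 of 26 of the thioredoxin list (23.1%) and 11 of 29 of the ATF4 list (37.9%). The heat shock element was in 4 of 25 chaperone windows (16%), in 0.35% of those of tested genes and in 0.525% of all windows. Of those 4 chaperone genes, Hsph1 was called higher, Dnajb6 was called lower, and Chordc1 and Hspe1 were not called. The composite element was in 8 of 29 windows of the ATF4 list (27.6%), in 2.24% of those of tested genes and in 4.04% of all windows. A window with both E2F forms was counted once, and a window may hold several of these motifs. Among genes described below, the windows of Rrm1 and Rrm2 held no E2F site of either form, that of Nqo1 no antioxidant core, that of Hspa1b no heat shock element and those of Ddit3 and Ppp1r15a no composite element. A match, or the lack of one, describes the letters of the window only.

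Library totals were 16535037 and 18065898 expected counts with 6-shogaol and 16906939 and 21179849 with LPS. Levels are CPM, counts scaled to library totals adjusted by TMM. Genes of the microglia and macrophage marker list were all tested, 10 of 10, and summed to 2330 to 2460 CPM with 6-shogaol and 2370 to 2410 CPM with LPS, with 2 called higher and 2 lower. Neuron markers summed to at most 0.303 CPM in any of the 4 libraries, lymphocyte and neutrophil markers to at most 5.21 CPM and oligodendrocyte markers to at most 17.8 CPM. The astrocyte list summed to 93.2 to 108 CPM with 6-shogaol and 80.5 to 82 CPM with LPS, with Gfap, Aqp4, Aldh1l1, Slc1a3 and Sox9 at 0 in all 4 libraries, and the fibroblast and endothelium list to 128 to 134 CPM and 128 to 131 CPM. Of 2 tested astrocyte genes 1 was called higher and 1 lower, and of 3 tested fibroblast and endothelium genes 2 were called lower. The oligodendrocyte list and the lymphocyte and neutrophil list each had 1 gene called lower. Mean fragment length was 235.6 and 244.1 bases with 6-shogaol and 237.0 and 223.0 bases with LPS, and with it as a covariate 2416 genes not called with LPS were again called, of which 2111 were among the 2416 called without it.

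The comparison of 6-shogaol plus LPS with LPS asks which genes move when the compound is added to the same stimulus. A gene was called at an adjusted p under 0.05, with edgeR's quasi-likelihood F test and Benjamini-Hochberg adjustment over all 12705 genes. By this rule 25.4% of genes were called, 1601 higher (12.6%) and 1621 lower (12.8%). Among the 11204 genes not called with LPS, 1376 rose (12.3%) and 1040 fell (9.28%), so that 85.9% of all genes that rose and 64.2% of all genes that fell were genes not called with LPS. LPS alone against untreated cells called 1501 genes (11.8%), 973 higher (7.66%) and 528 lower (4.16%), and 806 of the 1501 were called with 6-shogaol (53.7%). In none of the 2416 genes did the 6-shogaol and LPS libraries overlap, while 64.7% of all tested genes had groups that did not overlap, 32.3% higher and 32.4% lower. Where groups are said below to stand apart, this restates the call and adds no support to it.

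Missing the threshold with LPS does not show that LPS left a gene alone, and that contrast uses the same LPS libraries. For the 2416 genes, untreated levels near those with LPS and away from those with 6-shogaol follow largely from this choice. Where such levels are given below, they describe the genes and add no support. Under a stricter reading, the 95% interval of the change with LPS lay within ±0.58 on the log2 scale for 7555 genes, and 1925 of them were called (25.5%), 1172 higher and 753 lower. Against untreated cells, a contrast that shares the 6-shogaol libraries and called 3229 genes (25.4%; 13.3% higher and 12.1% lower), the 1376 genes that rose had a median log2 fold change of 0.44 and the 1040 that fell one of −0.55, beside 0.52 and −0.59 against LPS. Rises were mostly modest: 120 of 1376 reached a log2 fold change of 1, and 12 reached 2. Falls ran further, with 211 of 1040 at −1 or below and 55 at −2 or below. With a mean of at least 5 CPM in either group, the 12th largest rise was 1.47 (Mcm4) and the 12th largest fall −1.50. Most falls of −2 or below were thus in genes under 5 CPM in both groups. The 2416 calls became 1581 without 6-shogaol replicate 1, 1512 without 6-shogaol replicate 2, 1380 without LPS replicate 1 and 1437 without LPS replicate 2.

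**Figure D1:**
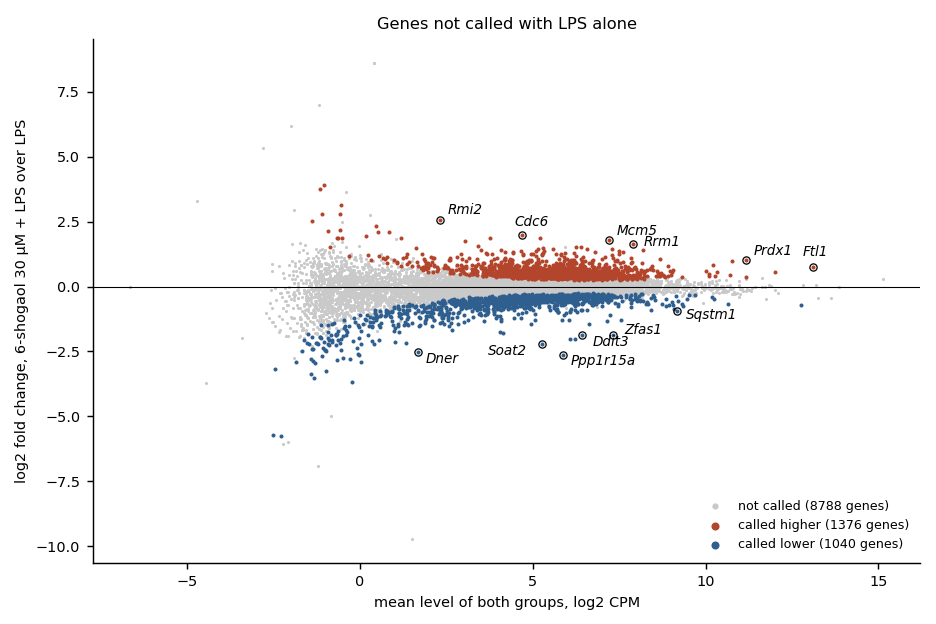
Log2 fold change of 6-shogaol 30 µM with LPS over LPS (vertical) against mean level of both groups in log2 CPM (horizontal), for the 11204 genes not called with LPS alone, each point 1 gene. Red points rose (1376), blue points fell (1040), and circles mark genes described in the text: replication genes such as Mcm5 and Cdc6 stand among the rises, and stress genes such as Ppp1r15a and Ddit3 among the falls.

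Polymerase and fork repair genes and replication licensing genes had the largest shares of rises among the lists with at least 9 genes not called with LPS. Of 45 polymerase, clamp and fork repair genes not called with LPS, 41 rose and 0 fell, and of 27 licensing genes 21 rose and 0 fell. Over all genes not called with LPS 12.3% rose and 9.28% fell, and the counts of each list are to be read beside these shares. Nucleotide synthesis genes rose in 17 of 28 cases and G1 cyclin, CDK and E2F genes in 19 of 32. The median log2 fold change over all tested members was 0.90 for polymerases and fork repair, 0.54 for licensing, 0.44 for nucleotide synthesis and 0.50 for the G1 genes, beside 0.00 over all genes tested. Left out 1 library at a time, 40 to 42 of the 48 tested polymerase and fork genes and 16 to 21 of the 28 tested licensing genes were called higher.

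Licensing loads the MCM helicase onto origins. Cdc6, the loader of the helicase, stood at 39.0 and 42.6 CPM with 6-shogaol, against 10.6 and 10.00 CPM with LPS. The 2 groups were far apart, and the log2 fold change was 1.99 (SE 0.12, edgeR adjusted p = 2.63e-08). Mcm5 (ENSMUSG00000005410, chr8:75109569-75128439 on GRCm38), a helicase subunit, had 242 and 217 CPM with 6-shogaol, against 68.3 and 65.4 CPM with LPS, a log2 fold change of 1.78 (SE 0.12, edgeR adjusted p = 7.19e-08). The other subunits moved with it: Mcm4 had 219 and 242 CPM with 6-shogaol, against 79.7 and 86.9 with LPS (1.47, SE 0.10, edgeR adjusted p = 8.12e-08). Mcm6, Mcm3, Mcm2 and Mcm7 rose by 1.40, 1.34, 1.08 and 0.90 on the log2 scale. Untreated cells had 67.4 and 68.8 CPM of Mcm5 and 10.9 and 10.8 CPM of Cdc6, at the level of the LPS libraries, as the choice of genes not called with LPS favours.

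At the fork, Rmi2, which acts with the BLM helicase to dissolve crossed strands, had the largest log2 fold change of the polymerase and fork list. It had 9.40 and 7.61 CPM with 6-shogaol, against 1.64 and 1.24 CPM with LPS, a log2 fold change of 2.57 (SE 0.23, edgeR adjusted p = 1.97e-06). Exo1, a nuclease of mismatch repair and resection, had 55.5 and 59.4 CPM with 6-shogaol, against 20.2 and 20.8 with LPS (1.49, SE 0.11, edgeR adjusted p = 2.88e-07). Brca1, a mediator of recombination repair, had 68.5 and 76.0 CPM, against 30.4 and 30.3 with LPS (1.25, SE 0.10, edgeR adjusted p = 8.92e-07). Groups stood apart for each of the 3 genes. Rpa1 and Clspn, which protect single strands and stalled forks, rose by 1.32 and 1.37, the sliding clamp Pcna by 1.08, and the clamp loader subunit Dscc1 by 1.55.

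In nucleotide supply, Rrm1, the large subunit of ribonucleotide reductase, had 338 and 381 CPM with 6-shogaol, against 116 and 115 CPM with LPS, a log2 fold change of 1.64 (SE 0.10, edgeR adjusted p = 2.34e-08). Its small subunit Rrm2 had 124 and 124 CPM, against 43.5 and 42.7 with LPS (1.52, SE 0.10, edgeR adjusted p = 1.1e-07). Dut, which clears dUTP, rose by 1.46, the thymidine kinase Tk1 by 1.25 and the deoxycytidine kinase Dck by 1.03. Tyms, thymidylate synthase, did not pass the test: it had 64.2 and 74.5 CPM with 6-shogaol, against 76.9 and 73.1 with LPS, and its 95% interval ran from −0.42 to 0.20.

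Among the G1 genes, Ccne2, a cyclin that opens S phase, had 52.5 and 63.0 CPM with 6-shogaol, against 18.0 and 14.1 CPM with LPS (1.85, SE 0.15, edgeR adjusted p = 9.23e-07). The related cyclin gene Ccne1 had 39.9 and 46.5 CPM, against 17.7 and 18.9 with LPS (1.24, SE 0.13, edgeR adjusted p = 6.35e-06). Both pairs of libraries were separate. E2f1, an activating E2F, rose by 0.90, the repressor E2f8 by 1.35, the pocket protein Rbl1 by 1.15 and the early G1 cyclin Ccnd1 by 1.00. Myc, which drives growth, fell by 0.61 to 8.61 and 9.30 CPM with 6-shogaol, against 13.3 and 14.0 with LPS (adjusted p = 0.0135, edgeR), and its adjusted p exceeded the threshold without any 1 library, at 0.0875 and 0.0512 without 6-shogaol replicate 1 and 2 and at 0.0507 and 0.0881 without LPS replicate 1 and 2. The CDK inhibitor Cdkn1a, which was lower with LPS than in untreated cells, had 36.3 and 30.0 CPM with 6-shogaol, against 39.0 and 34.8 with LPS, and did not pass the test.

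Mitosis genes rose less far. None of the 50 was called with LPS, 30 rose and 2 fell, and the median log2 fold change was 0.36. Nuf2, of the kinetochore, had 84.7 and 101 CPM with 6-shogaol, against 46.2 and 45.1 CPM with LPS (1.02, SE 0.14, edgeR adjusted p = 0.000103). Mki67, the proliferation marker, rose by 0.79, the topoisomerase Top2a by 0.68 and the kinase Aurkb by 0.76. The 2 that fell were the mitotic cyclin Ccnb2, with 76.3 and 80.4 CPM with 6-shogaol, against 108 and 104 with LPS (−0.44, SE 0.09, edgeR adjusted p = 0.00282), and the centromeric histone Cenpa (−0.41). Without 6-shogaol replicate 2, 20 of the 50 were called higher, the lowest number with 1 library left out. Core and linker histone genes have mRNAs that largely lack the poly(A) tail that mRNA kits select. Beside 12.3% higher and 9.28% lower over all genes not called with LPS, they gave 1 rise and 2 falls in 17. Those were 0 to 1 rises and 1 to 2 falls with 1 library left out.

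**Figure D2:**
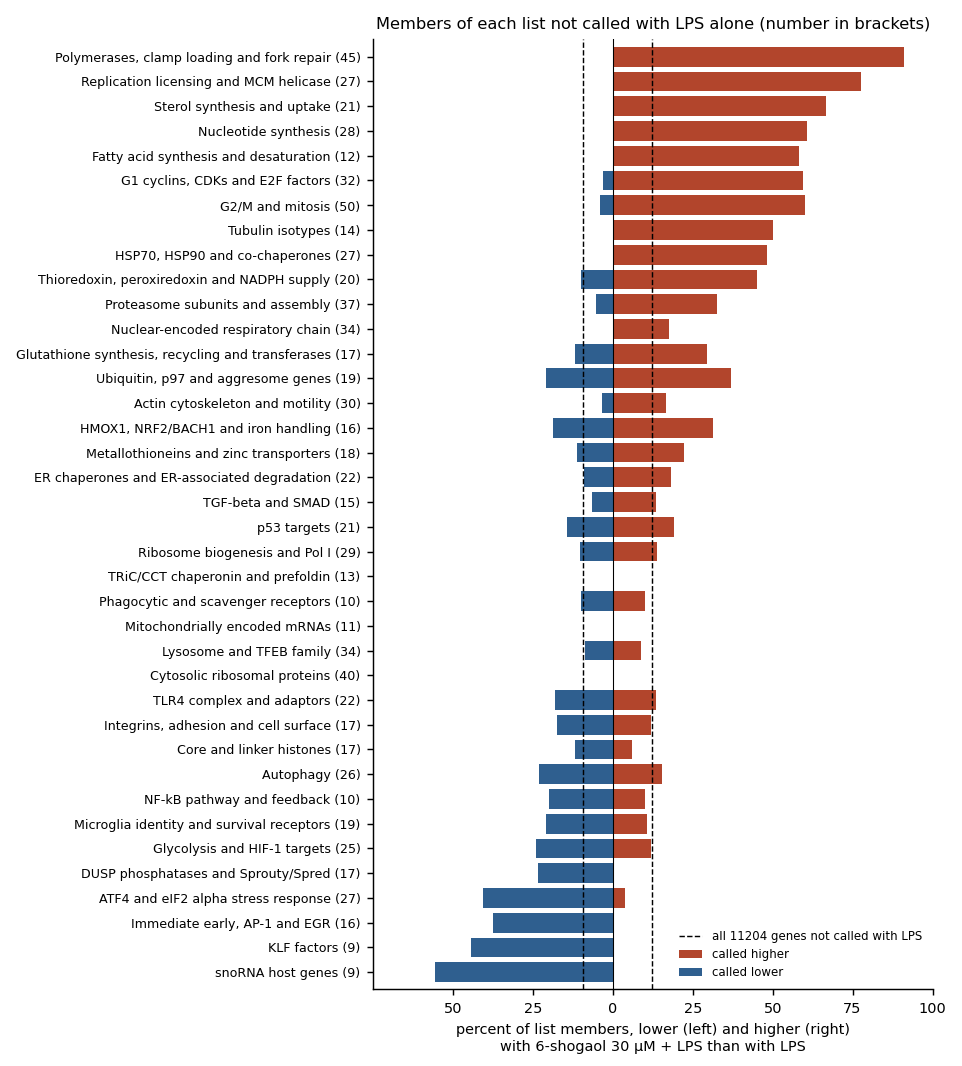
Percent of the members of each gene list that rose (red, to the right) or fell (blue, to the left) with 6-shogaol 30 µM and LPS against LPS, among members not called with LPS alone (number in brackets, lists with at least 9). Dashed lines give the shares over all 11204 such genes, 12.3% higher and 9.28% lower; polymerase and fork genes (41 of 45 rose) and licensing genes (21 of 27 rose) lie at the top and snoRNA host genes at the bottom (5 of 9 fell).

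NRF2-linked genes rose in part, and unevenly. In the thioredoxin, peroxiredoxin and NADPH list 9 of the 20 genes not called with LPS rose and 2 fell (median 0.39 over all 28 tested). In the glutathione list 5 of 17 rose and 2 fell, and in the list of NRF2 and BACH1 factors and iron handling 5 of 16 rose and 3 fell. Over all genes not called with LPS 12.3% rose and 9.28% fell, and the falls of the glutathione list lie near the latter share. Of all 26 tested glutathione genes, 11 rose, but 7, 7, 7 and 6 did so without 6-shogaol replicate 1 or 2 and without LPS replicate 1 or 2. Gclc, the catalytic subunit of the enzyme that limits glutathione synthesis, had 49.4 and 57.2 CPM with 6-shogaol, against 22.0 and 24.2 CPM with LPS, a log2 fold change of 1.20 (SE 0.14, edgeR adjusted p = 1.49e-05). Its regulatory subunit Gclm, which LPS alone raised, had 139.9 and 136 CPM with 6-shogaol, against 60.9 and 63.9 with LPS (1.14, SE 0.10, edgeR adjusted p = 9.23e-07), beside 35.0 and 38.4 CPM in untreated cells. Gclm was thus higher with 6-shogaol than in both other groups.

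Prdx1, a peroxide-reducing peroxiredoxin, had 2919 and 3282 CPM with 6-shogaol, against 1568 and 1498 CPM with LPS, a log2 fold change of 1.02 (SE 0.16, edgeR adjusted p = 0.000337). The NADPH-making enzymes Pgd and Idh1 rose by 0.94 and 0.86, and the epoxide hydrolase Ephx1 by 0.82. Ftl1, the ferritin light chain that stores iron, had 11997 and 10248 CPM with 6-shogaol, against 6484 and 6697 with LPS (0.76, SE 0.13, edgeR adjusted p = 0.000637). Keap1, the inhibitor of NRF2, rose by 0.76 and the iron transporter Slc11a1 by 0.64. The libraries of the 2 groups did not overlap for any of these genes.

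Several well-known targets of NRF2 were higher both with LPS than in untreated cells and with 6-shogaol than with LPS. The transferase Gsta3, whose reads may be shared with similar family members, had 8.73 and 10.7 CPM with 6-shogaol, against 1.51 and 1.71 CPM with LPS (2.58, SE 0.31, edgeR adjusted p = 2.98e-05). Malic enzyme Me1, glutathione reductase Gsr and thioredoxin reductase Txnrd1 rose by 1.17, 0.85 and 0.50. Nqo1, a quinone reductase, also rose, but close to the floor of detection, at 1.10 and 1.07 CPM with 6-shogaol, against 0.242 and 0.333 with LPS (1.87, SE 0.46, edgeR adjusted p = 0.00749), and was not called without LPS replicate 1 (adjusted p = 0.0723, edgeR) nor with DESeq2 (0.0709).

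Hmox1, haem oxygenase and a further known target, did not pass the test. It had 474 and 392 CPM with 6-shogaol, against 542 and 507 CPM with LPS and 226 and 232 in untreated cells. Its log2 fold change was −0.28 (SE 0.11, edgeR adjusted p = 0.0753), short of the threshold. It passed with DESeq2, with only the 4 libraries and without 6-shogaol replicate 1, and its adjusted p reached 0.124 in other settings with all 4 libraries and 0.488 with 1 left out. Txnip, an inhibitor of thioredoxin, fell to 297 and 311 CPM, against 428 and 453 with LPS (−0.53, SE 0.11, edgeR adjusted p = 0.0023), and the transferase Gstt2 fell by 1.21. Nfe2l1, the transcription factor of proteasome genes, fell by 0.66.

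Chaperones rose as a partial group. Of 27 HSP70, HSP90 and co-chaperone genes not called with LPS, 13 rose and 0 fell, beside 12.3% higher and 9.28% lower over all such genes. Of all 30 tested chaperone genes 14 rose. The 14 became 9, 9, 8 and 7 without 6-shogaol replicate 1 or 2 and without LPS replicate 1 or 2. Hspa8, the constitutive HSP70, had 2408 and 2460 CPM with 6-shogaol, against 695 and 701 CPM with LPS, a log2 fold change of 1.80 (SE 0.11, edgeR adjusted p = 5.54e-08). LPS alone lowered Hspa8, so it is not among the 27, and untreated cells had 1038 and 878 CPM. Hsph1, the HSP110 exchange factor, had 113 and 116 CPM, against 55.5 and 54.8 with LPS (1.05, SE 0.10, edgeR adjusted p = 2.22e-06). The related Hspa4 rose by 0.62.

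Of the stress-inducible members described here, Hspa1b and Hsp90aa1 passed the test and Dnajb1 did not. Hspa1b, an inducible HSP70 with a near-identical copy whose reads may be split between them, stood at 2.32 and 1.24 CPM with 6-shogaol, against 0.424 and 0.476 with LPS (1.95, SE 0.52, edgeR adjusted p = 0.0117), the largest fold of the list. It lost its call without 6-shogaol replicate 1 and without LPS replicate 1 or 2 (adjusted p = 0.137, 0.0777 and 0.0761, edgeR). Hsp90aa1, the inducible HSP90, had 1155 and 1354 CPM, against 849 and 804 with LPS (0.60, SE 0.14, edgeR adjusted p = 0.00516), and lost its call without 6-shogaol replicate 2 and without LPS replicate 2 (adjusted p = 0.0621 and 0.0549, edgeR). Dnajb1, an HSP40, had 30.4 and 24.8 CPM, against 24.8 and 22.1 with LPS, with an interval from −0.03 to 0.50 on the log2 scale. The constitutive HSP90 gene Hsp90ab1 had 2187 and 2070 CPM, against 1813 and 1854 with LPS, with an interval from −0.03 to 0.46, and did not pass the test either. Of 13 TRiC and prefoldin genes not called with LPS, 0 were called by edgeR and 0 had an unadjusted p under 0.05.

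Proteasome genes split. Of 37 not called with LPS, 12 rose and 2 fell, beside 12.3% higher and 9.28% lower over all such genes. The median was 0.09 over all 39 proteasome genes tested. Without 6-shogaol replicate 1 or 2 the rises numbered 9 and 4, and without LPS replicate 1 or 2 they numbered 4 and 3. Psmd1, a scaffold of the regulatory cap, had 218 and 223 CPM with 6-shogaol, against 96.6 and 92.8 CPM with LPS, a log2 fold change of 1.22 (SE 0.09, edgeR adjusted p = 2.88e-07). Psmb6, a catalytic core subunit, went the other way, at 403 and 369.6 CPM with 6-shogaol, against 736 and 664 with LPS (−0.86, SE 0.12, edgeR adjusted p = 0.00011). Ubiquitin, p97 and aggresome genes were mixed: of 22 tested 7 rose and 6 fell, at a median of 0.04. Among the 19 of these not called with LPS 7 rose and 4 fell. The segregase Vcp, the ubiquitin-activating enzyme Uba1 and the shuttle factor Ubqln2 rose by 0.51, 0.54 and 0.66.

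Sqstm1, the p62 cargo receptor that links ubiquitin to autophagy and NRF2, had 399.9 and 384 CPM with 6-shogaol, against 760.2 and 759 CPM with LPS, a log2 fold change of −0.95 (SE 0.11, edgeR adjusted p = 1.54e-05). Zfand2a, a proteasome partner known to be induced by arsenite, had 40.1 and 42.3 CPM, against 86.0 and 82.2 with LPS (−1.03, SE 0.10, edgeR adjusted p = 4.22e-06). Untreated cells had 635 and 661 CPM of Sqstm1 and 84.9 and 84.2 CPM of Zfand2a, above the 6-shogaol libraries in both. Of 26 autophagy genes not called with LPS, 4 rose and 6 fell, beside 12.3% higher and 9.28% lower over all such genes. The scaffold Atg13 of the initiating kinase complex fell by 0.73 and the conjugation factor Atg12 by 0.62. Of all 28 tested, 8 fell, which became 2 and 5 without 6-shogaol replicate 1 or 2 and 3 and 4 without LPS replicate 1 or 2, and 4 rose, which became 0 and 3, and 1 and 0.

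Lipid synthesis genes rose wherever they were called with 6-shogaol and not with LPS. Of 21 sterol genes not called with LPS, 14 rose and 0 fell, and of 12 fatty acid genes 7 rose and 0 fell. Over all genes not called with LPS 12.3% rose and 9.28% fell. The medians of the sterol and fatty acid lists were 0.45 and 0.35 over all tested members. Acat2, which starts the sterol pathway by joining acetyl groups, had 80.3 and 77.9 CPM with 6-shogaol, against 37.5 and 30.4 CPM with LPS, a log2 fold change of 1.22 (SE 0.13, edgeR adjusted p = 7.1e-06). The later enzymes Hsd17b7, Fdft1 and Dhcr7 rose by 0.86, 0.80 and 0.79, and the squalene epoxidase Sqle by 0.52. Scd2, a desaturase, had 2380 and 2269 CPM, against 1162 and 1180 with LPS (0.99, SE 0.12, edgeR adjusted p = 3.76e-05). Srebf1, which encodes the lipid transcription factor SREBP-1, rose by 0.73.

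Of the 12 tested genes of the list of LXR targets and lipid efflux, 5 rose and 2 fell, and among the 7 not called with LPS 2 rose and 1 fell. These are small counts beside 12.3% higher and 9.28% lower over all genes not called with LPS. The 5 rises became 3 and 4 without 6-shogaol replicate 1 or 2 and 2 in each fit without an LPS library. The lipid carrier Apoe and the phospholipid-remodelling enzyme Lpcat3 rose by 0.73 and 0.58, and the cholesterol exporter Abca1 fell by 0.94. Nr1h3, the oxysterol receptor LXRα, had 2.69 and 3.10 CPM with 6-shogaol, against 7.81 and 7.90 CPM with LPS (−1.44, SE 0.20, edgeR adjusted p = 9.76e-05). Soat2, which esterifies cholesterol and is in none of the lists, had 13.7 and 13.7 CPM with 6-shogaol, against 58.3 and 67.7 CPM with LPS, a log2 fold change of −2.20 (SE 0.13, edgeR adjusted p = 1.88e-08). Untreated cells had 68.0 and 58.2 CPM of Soat2 and 8.06 and 9.63 CPM of Nr1h3, far above the 6-shogaol libraries. Tubulins rose in 7 of 14 genes not called with LPS and fell in 0. Tuba1b had 1510 and 1505 CPM with 6-shogaol, against 849.7 and 866 with LPS (0.81, SE 0.12, edgeR adjusted p = 0.000134), and Tubb4b rose by 0.76. Actin and motility genes changed little as a list: of 36 tested 6 rose and 3 fell, at a median of 0.02. Among the 30 of these not called with LPS 5 rose and 1 fell. The actin bundler Lcp1 rose by 0.81.

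**Figure D3:**
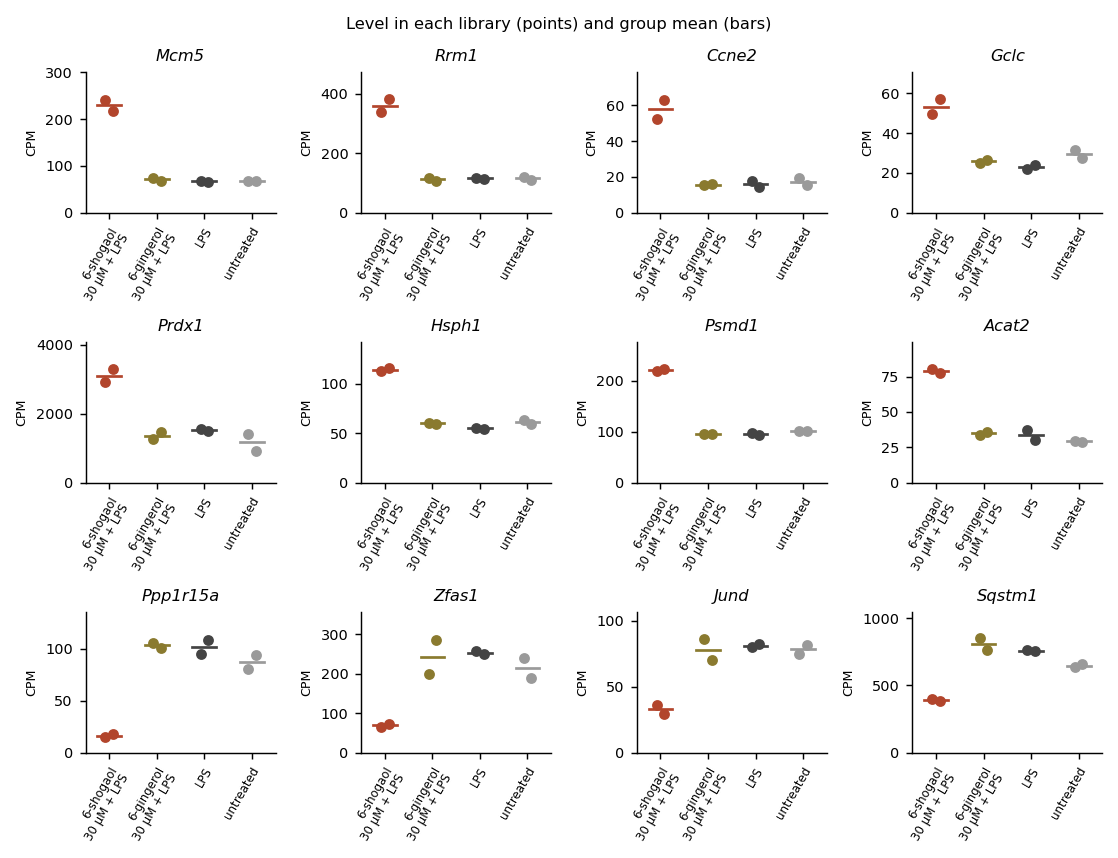
CPM in each library (points, 2 per group) and group mean (short bars) for 12 genes with 6-shogaol 30 µM and LPS, 6-gingerol 30 µM and LPS, LPS alone and no treatment, each vertical axis from 0. In all 12 panels the 6-shogaol libraries stand apart from the other 3 groups, as with Mcm5, at 242 and 217 CPM against 68.3 and 65.4 CPM with LPS.

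Among the stress genes of ATF4, falls outnumbered rises. Of 27 not called with LPS, 11 fell and 1 rose, beside 9.28% lower and 12.3% higher over all such genes. The median was −0.33 over all 34 tested members of the ATF4 list. Ppp1r15a (ENSMUSG00000040435, chr7:45522916-45526268 on GRCm38), which encodes GADD34, the phosphatase subunit that reverses eIF2α phosphorylation, had 15.2 and 17.8 CPM with 6-shogaol, against 94.9 and 108 CPM with LPS. Its log2 fold change was −2.62 (SE 0.13, edgeR adjusted p = 3.68e-09). Trib3, a pseudokinase, had 32.1 and 26.9 CPM with 6-shogaol, against 125 and 112 with LPS (−2.00, SE 0.17, edgeR adjusted p = 1.06e-06). Ddit3, which encodes CHOP, had 34.4 and 39.1 CPM, against 128 and 141 with LPS (−1.87, SE 0.15, edgeR adjusted p = 6.43e-07). Untreated cells had 80.7 and 93.8 CPM of Ppp1r15a, 155 and 181 of Trib3 and 187 and 134 of Ddit3, also far above the 6-shogaol libraries.

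Atf4 itself had 321 and 347 CPM with 6-shogaol, against 512 and 540.0 CPM with LPS, a log2 fold change of −0.66 (SE 0.11, edgeR adjusted p = 0.000476), and its relative Atf3 fell, with a 95% interval from −1.51 to −1.10. The tRNA synthetases Nars and Aars fell by 0.60 and 0.48, and Sesn2, a leucine sensor, by 0.67. Without 1 library at a time, 11 to 13 of the 34 were called lower, beside 14 with all. Of 22 ER chaperone and degradation genes not called with LPS, 4 rose and 2 fell, shares near those over all genes not called with LPS (12.3% and 9.28%). Calr, calreticulin, had 623 and 586 CPM, against 388 and 413 with LPS (0.59, SE 0.11, edgeR adjusted p = 0.000856), and the sensor kinase Ern1 fell by 0.61. The 4 rises became 2 and 3 without 6-shogaol replicate 1 or 2 and 4 and 2 without LPS replicate 1 or 2, and the 2 falls 2 and 1, and 2 and 1.

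Growth factor response genes that were called fell. Of 16 AP-1 and EGR genes not called with LPS, 6 fell and 0 rose, of 9 KLF genes 4 fell and 0 rose, and of 17 DUSP and Sprouty genes 4 fell and 0 rose. Over all genes not called with LPS 9.28% fell and 12.3% rose. The medians of these lists over all tested members were −0.70, −0.48 and −0.42. Jund, a Jun family factor, had 36.3 and 29.4 CPM with 6-shogaol, against 79.9 and 82.2 CPM with LPS (95% interval of the log2 fold change −1.58 to −1.03, edgeR adjusted p = 3.64e-06). Klf6, a zinc finger factor, had 77.1 and 84.0 CPM, against 207 and 197 with LPS (−1.32, SE 0.09, edgeR adjusted p = 1.44e-07). The groups did not overlap for either, and untreated cells had 74.7 and 81.8 CPM of Jund and 186 and 178 CPM of Klf6. Jun, Fosl2, the orphan receptor Nr4a1, Klf4 and the ERK phosphatase Dusp5 fell by 0.81, 0.80, 1.22, 1.17 and 1.18.

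Noncoding RNA genes fell far more often than they rose. Of 728 antisense, lincRNA, processed transcript, bidirectional promoter and sense-overlapping or intronic genes not called with LPS, 107 fell (14.7%) and 14 rose (1.92%), at a median of −0.24. Of 9883 protein-coding genes not called with LPS, 903 fell (9.14%) and 1341 rose (13.6%), at a median of 0.03. Noncoding genes are mostly low, and low genes are called less often upward: among protein-coding genes under 2 CPM, 2.02% rose and 7.55% fell. At 10 to 50 CPM, 37.3% of 51 noncoding genes fell and 9.8% rose, and of 4100 protein-coding genes 9.17% fell and 14% rose. The classes split alike, with falls and rises of 36 and 4 in 240 lincRNA genes, 36 and 3 in 261 antisense genes and 27 and 6 in 172 processed transcripts.

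The 107 falls became 67 and 66 without 6-shogaol replicate 1 or 2 and 72 and 66 without LPS replicate 1 or 2, and the 14 rises 8 and 7, and 8 and 10. The 6-shogaol libraries had 15345 and 15352 genes with a count and the LPS libraries 15671 and 16015, and the part of this in the result was not tested. The kit marks strand, but the strand setting of the counting is not given, so an antisense gene cannot be told from its partner here. Grouping genes by class in this way was chosen after values were seen.

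**Figure D4:**
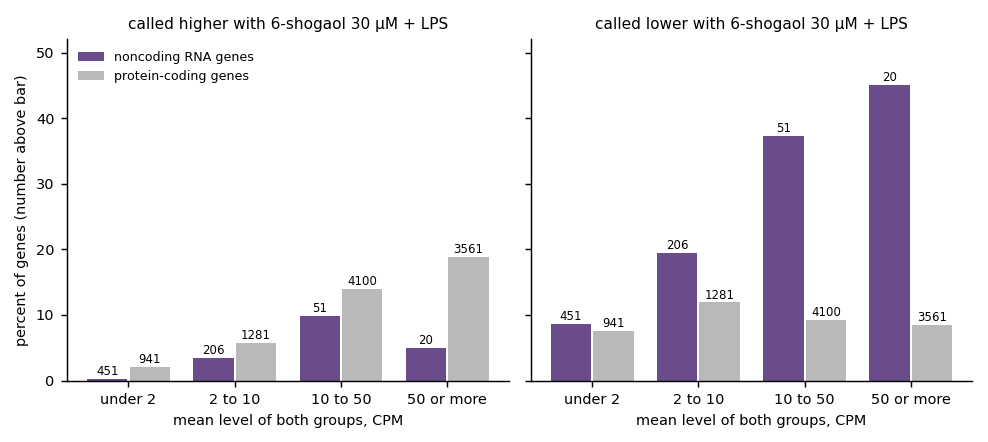
Percent of genes called higher (left panel) and lower (right panel) with 6-shogaol 30 µM and LPS against LPS, by mean level in CPM, for noncoding RNA genes (purple) and protein-coding genes (grey) not called with LPS alone, with the number of genes above each bar. At 50 CPM or more, 45% of 20 noncoding genes fell and 5% rose, against 8.54% and 18.9% of 3561 protein-coding genes.

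Hosts of small nucleolar RNAs were among them. Of 9 host genes not called with LPS, 5 fell and 0 rose, beside 9.28% lower and 12.3% higher over all genes not called with LPS. Of all 10, 6 fell, and 4, 4, 4 and 3 did so without 6-shogaol replicate 1 or 2 and without LPS replicate 1 or 2. Zfas1 (ENSMUSG00000074578, chr2:167062934-167065862 on GRCm38) had 65.8 and 72.0 CPM with 6-shogaol, against 258 and 249 CPM with LPS, a log2 fold change of −1.88 (SE 0.16, edgeR adjusted p = 9.23e-07). Snhg5 had 20.6 and 32.3 CPM, against 104 and 110.3 with LPS (−2.02, SE 0.35, edgeR adjusted p = 0.00394), and untreated cells had 79.7 and 51.2 CPM. Snhg12, which LPS raised slightly, had 9.65 and 9.47 CPM, against 62.4 and 67.0 with LPS (−2.76, SE 0.13, edgeR adjusted p = 2.18e-09). Gas5 had 211 and 267 CPM, against 438 and 463 with LPS (adjusted p = 0.0419, edgeR). It lost its call without any 1 library, at 0.199 and 0.074 without 6-shogaol replicate 1 and 2 and at 0.112 and 0.146 without LPS replicate 1 and 2, and with the replicate block, at 0.0546.

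The 40 cytosolic ribosomal protein genes gave 0 calls with edgeR, with 2 at an unadjusted p under 0.05 and up to 2 called lower under the other settings. Their log2 fold changes ran from −0.3 to 0.09. Neat1, the scaffold of paraspeckles, had 474 and 512 CPM with 6-shogaol, against 776 and 809 CPM with LPS (−0.69, SE 0.15, edgeR adjusted p = 0.00334). Tug1 fell by 0.48 and Mir22hg, the host of miR-22, by 1.51. Brip1os rose, at 77.7 and 87.9 CPM, against 43.3 and 48.3 with LPS (0.85, SE 0.11, edgeR adjusted p = 6.13e-05). Brip1os, Neat1 and Tug1 were named after their values were seen.

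Genes of microglial function changed in both directions. Of 19 identity and survival receptors not called with LPS, 2 rose and 4 fell, beside 12.3% higher and 9.28% lower over all genes not called with LPS. Csf3r, the receptor of G-CSF, had 8.79 and 9.75 CPM with 6-shogaol, against 21.5 and 21.4 CPM with LPS (−1.21, SE 0.14, edgeR adjusted p = 1.36e-05), and the purinergic receptor P2rx7 fell by 0.44. Of 22 such TLR4 complex and adaptor genes 3 rose and 4 fell. Cd14, the coreceptor that hands LPS to TLR4, had 54.3 and 52.8 CPM, against 144 and 144 with LPS and 141 and 115 in untreated cells (−1.42, SE 0.12, edgeR adjusted p = 1.18e-06). The adaptors Ticam2 and Myd88 fell by 0.76 and 0.56. Of the 26 tested NF-kB pathway genes 2 rose and 12 fell, and among the 10 not called with LPS 1 rose, the deubiquitinase Cyld (by 0.48), and 2 fell, one of them Relb (by 0.71). The 12 falls became 11 and 8 without 6-shogaol replicate 1 or 2 and 11 and 7 without LPS replicate 1 or 2. The 8 falls among the 31 tested identity genes became 7 and 3 without 6-shogaol replicate 1 or 2, and 4 and 5 without LPS replicate 1 or 2. The 4 TLR4-list genes that rose, of 26 tested, became 2 in each fit without a 6-shogaol library and 2 and 3 without LPS replicate 1 or 2.

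Hypoxia and glycolysis genes fell in 6 of 25 genes not called with LPS and rose in 3, beside 9.28% lower and 12.3% higher over all such genes. Ero1l, an ER oxidase induced by HIF-1, had 419.5 and 386 CPM with 6-shogaol, against 697 and 612 CPM with LPS (−0.70, SE 0.11, edgeR adjusted p = 0.000385). Vegfa, the vascular growth factor, had 74.1 and 72.3 CPM, against 109 and 109 with LPS (−0.57, SE 0.09, edgeR adjusted p = 0.000209), and Ankrd37 fell by 0.93. The groups were apart in each. Among genes in none of these lists, Dner, a Notch ligand best known in neurons, had 1.47 and 0.451 CPM, against 4.78 and 6.09 with LPS (−2.53, SE 0.39, edgeR adjusted p = 0.000245). The keratin Krt23 and the vesicle gene Hid1 fell by 1.75 and 1.69, and S100a11, a calcium-binding protein, rose by 1.54. The 41 lists hold 349 of the 2416 genes, and 2067 are in none.

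6-Shogaol and 6-gingerol were compared at 30 µM with LPS, as 1 pair. Over all 12705 genes 3171 differed (25%), 1592 higher (12.5%) and 1579 lower (12.4%) with 6-shogaol. 6-Gingerol at 30 µM against LPS gave 0 calls with edgeR (0%) and 189 genes at an unadjusted p under 0.05, but the contrasts share libraries and are not set against each other here. Among the lists, 41 of the 45 polymerase and fork genes not called with LPS differed between the compounds, 22 of 27 licensing genes, 32 of 50 mitosis genes, 15 of 21 sterol genes and 14 of 27 ATF4 genes. Mcm5 had 242 and 217 CPM with 6-shogaol, against 74.3 and 68.7 CPM with 6-gingerol (log2 difference 1.68, edgeR adjusted p = 1.33e-07). Ppp1r15a had 15.2 and 17.8 CPM with 6-shogaol, against 106 and 101 with 6-gingerol (−2.65, edgeR adjusted p = 3.65e-09).

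Prdx1 had 2919 and 3282 CPM with 6-shogaol, against 1253 and 1464 CPM with 6-gingerol (1.19, edgeR adjusted p = 9.78e-05). Psmd1 had 218 and 223 CPM with 6-shogaol, against 96.2 and 96.0 with 6-gingerol (1.20, edgeR adjusted p = 3.87e-07). In each of these 4 genes the libraries of the 2 compounds were separate. Some genes did not pass this test. Hmox1 had 474 and 392 CPM with 6-shogaol, against 511 and 532 with 6-gingerol, with a 95% interval of the log2 difference from −0.50 to −0.04 and an adjusted p of 0.084 (edgeR). For Hsp90ab1 the interval ran from −0.09 to 0.41 and for Tyms from −0.19 to 0.44. Of 40 ribosomal protein and 13 chaperonin genes, 0 and 0 were called by edgeR, with 1 and 0 at an unadjusted p under 0.05.

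Between 10 and 30 µM of 6-shogaol, 2463 genes differed (19.4%), 1251 higher (9.85%) and 1212 lower (9.54%) at 30 µM. Against LPS, 10 µM gave 81 calls (0.638%), 8 higher (0.063%) and 73 lower (0.575%). Cdc6 had 10.6 and 10.00 CPM with LPS alone, a mean of 11.6 at 10 µM and 39.0 and 42.6 at 30 µM, so nearly all of its rise lay above 10 µM. Ephx1 had 49.0 and 48.1 CPM with LPS, 75.7 and 68.8 at 10 µM and 91.0 and 80.5 at 30 µM, and Cd14 had 144 and 144 CPM with LPS, 84.8 and 82.4 at 10 µM and 54.3 and 52.8 at 30 µM. Both were already called at 10 µM (log2 fold change 0.57 and −0.78, edgeR adjusted p = 0.0276 and 0.00397). Krt23 was a further such gene, at 24.0 and 26.8 CPM with LPS, 15.1 and 15.0 at 10 µM and 7.51 and 7.55 at 30 µM (10 µM: −0.75, adjusted p = 0.0112, edgeR). Ero1l had 697 and 612 CPM with LPS, 844 and 963 at 10 µM and 419.5 and 386 at 30 µM, highest at the middle dose, where its change from LPS did not pass the test (adjusted p = 0.0975, edgeR).

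**Figure D5:**
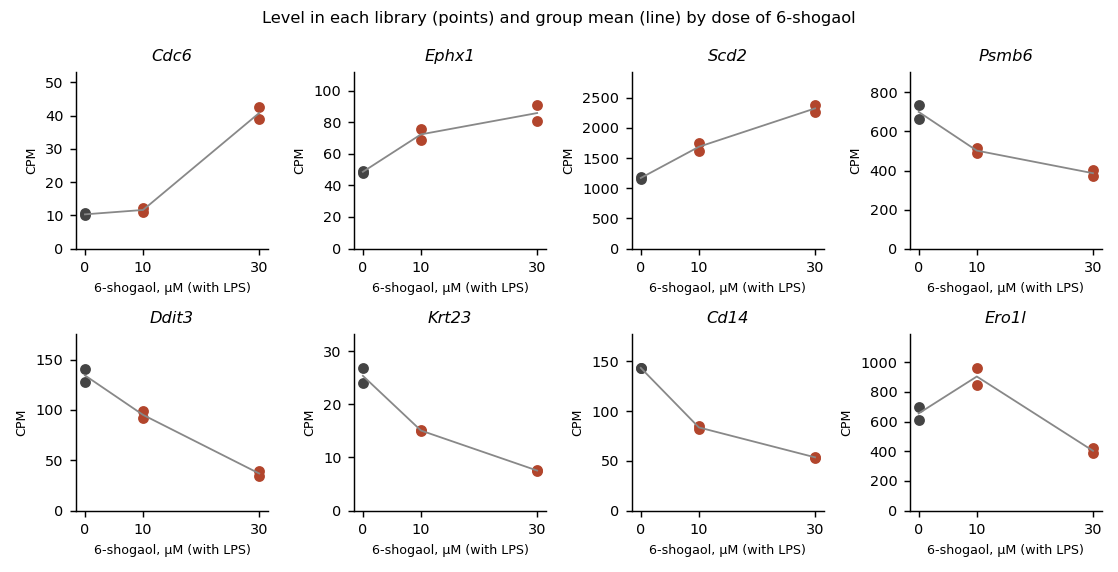
CPM in each library (points) and group mean (line) of 8 genes at 0, 10 and 30 µM of 6-shogaol, all with LPS, each vertical axis from 0. Cdc6 changes mainly between 10 and 30 µM (mean 11.6 CPM at 10 µM), Cd14 and Krt23 already between 0 and 10 µM (84.8 and 82.4 CPM for Cd14 and 15.1 and 15.0 CPM for Krt23 at 10 µM), and Ero1l is highest at 10 µM.

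Among genes that LPS did change, the single largest fall (Ptprg) and the single largest rise (Ipcef1) rested on levels near 0. Ptprg, a receptor phosphatase, was at 0 in both 6-shogaol libraries, against 0.605 and 1.09 CPM with LPS. Set against 3 counts per library, it was at least 4.83-fold lower. Ipcef1 was at 0.366 and 0.676 CPM with 6-shogaol, against 0 in both LPS libraries, at least 3.21-fold higher by the same floor. At least 5 CPM in both LPS libraries and under 1 CPM in both 6-shogaol libraries were found in 3 genes, and the reverse in 0. Zbp1, a sensor of Z-form nucleic acid, had 0.916 and 0.845 CPM with 6-shogaol, against 7.33 and 6.95 with LPS (−3.01, SE 0.23, edgeR adjusted p = 4.1e-07). Rtp4, an interferon-induced gene, and Wfdc21 fell by 2.75 and 3.87. Over the interferon list 24 of 35 genes fell and 1 rose, over the cytokine list 19 of 22 fell and 0 rose, and 4 and 6 members of the 2 lists were not called with LPS. Of all 973 genes called higher with LPS, 557 were called lower with 6-shogaol (57.2%) and 43 higher (4.42%). Whether either list differs from that share was not tested.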

How the data were processed

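RNA of 12 BV2 libraries was sequenced paired-end from a TruSeq stranded mRNA kit, per the labels' protocols. The authors deposited RSEM expected counts and TPM values per gene, and RSEM 1.3.3, STAR 2.7.11b, Trimmomatic 0.39, DESeq2 1.44.0 and the build GRCm38 (mm10) are listed in the submitters' processing notes. A further table the authors deposited holds a normalized signal per gene whose scaling is not given in the sources used here. It served as an alternative only, as log2 of the value plus 1.

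Expected counts (7.03% not whole) were rounded, genes filtered with filterByExpr, which left 12705 of 43432, scaled by TMM and fitted with edgeR 4.0.16 (R 4.3.3; glmQLFit with robust estimation, glmQLFTest) over 12 libraries and 6 groups, with Benjamini-Hochberg adjustment. TPM values, as deposited by the authors, were not tested. Alternatives used DESeq2 1.42.0, limma 3.58.1, other scalings, no filter, fewer libraries, fragment length and a replicate block. The fit was tested on simulated data.

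The comparison, gene lists and motifs were chosen with earlier results of these data known. Genes were named by rule: the 12 largest rises and 12 largest falls with at least 5 CPM, groups apart and no call with LPS, up to 5 members of each list by adjusted p (up to 2 if called with LPS), the 3 largest rises and falls among genes called with LPS, and genes under 1 CPM in one group and at least 5 CPM in the other. Further genes, among them Tyms, Myc, Hmox1, Nqo1 and Hspa1b, were added after values were seen. Results for some genes are not reported here.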

Additional observations from a re-analysis of the deposited data

How the results depend on the processing

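The 3222 calls fell to between 1827 and 2171 with 1 of the 4 libraries left out (842 to 1105 higher, 934 to 1066 lower), and the 2416 calls among genes not called with LPS to between 1380 and 1581 (769 to 956 higher, 605 to 625 lower). Protein-coding calls in that set were 750 to 938 higher and 518 to 545 lower, and noncoding calls 7 to 10 higher and 66 to 72 lower. With an arm of 1 library its spread is assumed to be that of the other groups. In the other 9 settings the 2 totals stayed within 1.5 times: 2938 and 2211 with DESeq2, 3133 and 2339 with limma-voom, 2360 and 1843 when limma-trend was run on values the authors had normalized, and 4021 and 3154 with only the 4 libraries, which kept the LPS calls of the 12-library fit. Noncoding calls higher moved from 14 to 8 with DESeq2 and to 25 with only the 4 libraries, and the cause was not tested. With replicate number as a block, 3262 genes were called (2433 not called with LPS), 3143 of them shared with the fit without it. Deviations of same-numbered 6-shogaol and LPS libraries from their group means correlated at 0.04. This value cannot show whether same-numbered libraries shared a culture or a batch. Across named genes and settings, 3467 results kept their call or lack of it, 256 lost a call, 3 gained one and 0 changed direction. The median half-width of the 95% interval was 0.29 on the log2 scale, so smaller changes were mostly not detectable with 2 libraries a group.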

Other observations

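Several further groups gave mixed values among genes not called with LPS. Nuclear-encoded respiratory chain genes rose in 6 of 34 cases and fell in 0, but the 6 became 3 and 4 without 6-shogaol replicate 1 or 2 and 2 and 2 without LPS replicate 1 or 2. Lysosome and TFEB family genes rose in 3 and fell in 3 of 34. Targets of p53 rose in 4 and fell in 3 of 21. Metallothionein and zinc transporter genes rose in 4 and fell in 2 of 18, and TGF-beta and SMAD genes rose in 2 and fell in 1 of 15. Beside 12.3% higher and 9.28% lower over all genes not called with LPS, these are small counts, and no list was tested.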
